A study of Mus musculus with 2 samples.

Results

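Wide DARs are the differentially accessible regions of at least 300 bp in an ATAC-seq comparison of osteoclast precursors with and without BRD9 inhibition. They were selected on their width in the deposited table of all DARs, and numbered 438 of 5650 regions (7.75%), with 5212 remaining DARs below the limit. The study asked how blocking BRD9 changes chromatin while bone marrow-derived monocytes (BMDMs) turn into osteoclasts. BMDMs came from C57BL/6 mice, from tibias and femurs per the labels, while the methods name femurs of C57BL/6J mice 4 to 6 weeks old. Both groups received the cytokines that drive osteoclast formation, M-CSF at 50 ng/ml and, at 100 ng/ml, RANKL, and were exposed for a day to control vector (MR + vector) or to iBRD9, a chemical inhibitor of BRD9 (MR + iBRD9). Each group was 1 library of 5000 cells, so that every difference is one between 2 libraries, has no replicate check and was not tested. Gain DARs are those more accessible with iBRD9 and loss DARs those less accessible, as the deposited tables are named and the study describes them.

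ATAC-seq uses the Tn5 transposase, which inserts adapters into open DNA, so that read pairs pile up where nucleosomes are absent or mobile. BRD9 is a bromodomain protein of the non-canonical BAF complex (ncBAF), a remodeler that moves nucleosomes. In mammalian cells, the promoters of widely used genes usually sit in CpG islands and stay open over a long stretch, whereas open enhancers are usually narrower and, in osteoclast precursors, often hold sites for AP-1, the FOS and JUN dimer that RANKL induces.

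The sequences of a few wide DARs are shown first, since the comparisons turn on promoter elements and on AP-1. The letters TGANTCA on either strand define an AP-1 site here, and capitals mark it in the central 150 bp of the widest loss and gain DARs that hold one there and overlap no exon of a protein-coding gene in that window. Regions whose nearest gene has no symbol or a name starting with Gm were passed over for printing, as were some others. Sequences run 5′ to 3′, all coordinates are GRCm39, and DARs are named by the nearest gene in the deposited tables, which does not show that the gene is regulated by the region.
Dpys loss DAR, in the last intron of the gene for a pyrimidine-breaking enzyme, chr15:39641945-39642094 (+ strand): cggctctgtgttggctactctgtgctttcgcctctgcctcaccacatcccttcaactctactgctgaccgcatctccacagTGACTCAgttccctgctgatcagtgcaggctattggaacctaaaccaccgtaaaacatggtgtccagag
Lipn loss DAR, over the TSS of a lipase gene, chr19:34044472-34044621 (+ strand): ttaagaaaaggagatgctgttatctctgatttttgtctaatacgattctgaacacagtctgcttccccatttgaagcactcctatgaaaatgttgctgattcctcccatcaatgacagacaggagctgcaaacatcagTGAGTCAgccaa
Frg2f4 loss DAR, between genes, chr14:106249662-106249811 (+ strand): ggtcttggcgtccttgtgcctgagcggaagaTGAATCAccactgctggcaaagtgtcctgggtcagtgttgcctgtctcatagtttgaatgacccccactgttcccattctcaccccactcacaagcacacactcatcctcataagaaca
Kcnj8 loss DAR, near the gene for a potassium channel subunit, chr6:142518724-142518873 (+ strand): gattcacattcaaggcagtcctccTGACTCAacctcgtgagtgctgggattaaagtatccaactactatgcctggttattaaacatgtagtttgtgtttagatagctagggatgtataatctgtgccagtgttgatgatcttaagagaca
Aig1 gain DAR, in the first intron of the gene for a lipid hydrolase, chr10:13708563-13708712 (+ strand): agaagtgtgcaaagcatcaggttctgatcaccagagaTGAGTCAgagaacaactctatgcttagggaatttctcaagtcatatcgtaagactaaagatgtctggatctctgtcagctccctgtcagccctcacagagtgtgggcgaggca
Dock10 gain DAR, in an intron, chr1:80587478-80587627 (+ strand): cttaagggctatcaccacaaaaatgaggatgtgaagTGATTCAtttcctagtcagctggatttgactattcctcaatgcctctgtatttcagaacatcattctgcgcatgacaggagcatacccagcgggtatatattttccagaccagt
Zeb2 gain DAR, in intron 3 of the gene for a myeloid zinc finger factor, chr2:44939475-44939624 (+ strand): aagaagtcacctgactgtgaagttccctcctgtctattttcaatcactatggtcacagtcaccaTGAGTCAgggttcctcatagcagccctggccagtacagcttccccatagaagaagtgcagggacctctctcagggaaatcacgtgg

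The next set shows wide DARs with promoter-type sequence, read in the direction of the gene for those at a start site and ending before its first protein-coding exon. Capitals mark the GC box, GGGCGG or its reverse complement, the element bound by SP and KLF factors. Pip5k1c and Selenoi are phospholipid genes, Atp2b1 and Ccdc34 had the widest gain and loss DARs, and Bicra encodes a defining partner of BRD9 in ncBAF. No match in a line says only that these letters are not in that window. Not printed are the stretches upstream of Pisd, the third phospholipid gene with a wide DAR (56 bp), of Ranbp2 (150 bp) and of Ssu72 (97 bp), each with 0 GC boxes.
Pip5k1c gain DAR, upstream of the start, chr10:81128539-81128688 (+ strand): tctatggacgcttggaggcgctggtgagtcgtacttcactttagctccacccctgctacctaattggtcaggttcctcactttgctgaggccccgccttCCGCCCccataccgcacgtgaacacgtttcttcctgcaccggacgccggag
Selenoi gain DAR, upstream of the start, chr5:30437429-30437578 (+ strand): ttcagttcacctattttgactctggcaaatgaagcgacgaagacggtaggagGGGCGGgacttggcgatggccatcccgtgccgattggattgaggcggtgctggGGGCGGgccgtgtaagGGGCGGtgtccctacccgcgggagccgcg
Atp2b1 gain DAR, upstream of the start, chr10:98750118-98750267 (+ strand): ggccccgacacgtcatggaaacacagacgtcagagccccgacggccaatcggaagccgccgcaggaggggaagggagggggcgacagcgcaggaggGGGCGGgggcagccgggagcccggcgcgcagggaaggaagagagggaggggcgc
Ccdc34 loss DAR, upstream of the start, chr2:109847987-109848136 (+ strand): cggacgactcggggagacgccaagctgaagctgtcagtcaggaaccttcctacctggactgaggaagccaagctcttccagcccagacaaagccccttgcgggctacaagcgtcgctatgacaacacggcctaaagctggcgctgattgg
Bicra gain DAR, central 150 bp, chr7:15786759-15786908 (+ strand): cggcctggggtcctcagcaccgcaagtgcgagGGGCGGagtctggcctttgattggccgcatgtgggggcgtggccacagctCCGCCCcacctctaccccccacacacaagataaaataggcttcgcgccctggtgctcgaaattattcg

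Widths chose these regions and are given as a description. Wide DARs ran from 300 to 898 bp with a median of 351 bp, and together covered 165670 bases, 14.3% of all bases in DARs. Just inside the limit were 6 DARs of exactly 300 bp, 4 of them gain, and just outside were 3 DARs of 299 bp, 0 of them gain. The limit cut a smooth slope and did not separate clusters of widths, as the plot of widths by direction shows.

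**Figure D1:**
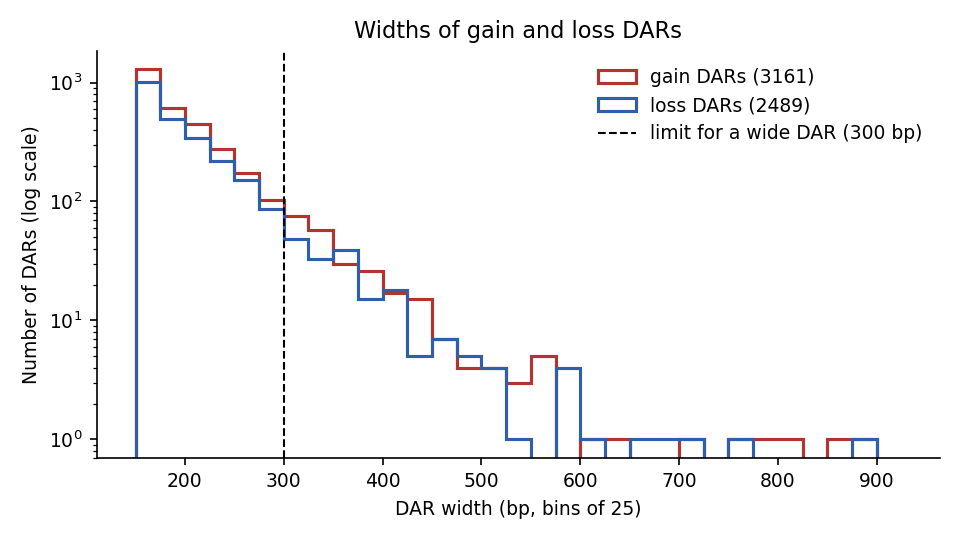
Number of DARs (log scale) by width in bins of 25 bp for 3161 gain DARs (red) and 2489 loss DARs (blue), with the limit of 300 bp dashed. Both curves fall steadily across the limit, and the widest regions reach 892 bp among gain and 898 bp among loss DARs.

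Wide DARs were split between the directions much as the other regions were. There were 253 wide gain DARs and 185 wide loss DARs, beside a background of 55.9% gain and 44.1% loss over all 5650 DARs. The gain share was 57.8% of wide DARs (exact 95% interval 53.0% to 62.4%) and 55.8% of the remaining DARs (54.4% to 57.2%). These intervals, like all those given for shares, cover counting error only and not the difference between cultures. The median width was 346 bp among wide gain DARs and 353 bp among wide loss DARs. Within single width ranges, the gain share lay between 50.9% (350 to 399 bp, 110 DARs) and 62.3% (300 to 349 bp, 215 DARs) and followed no order with width.

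The annotation of wide DARs leaned to promoters. In the deposited classes, 152 wide DARs (34.7%, 30.2% to 39.4%) were in the promoter class, which reaches upstream of a transcription start site (TSS), against 777 remaining DARs (14.9%, 14.0% to 15.9%). Of the 152, 118 covered the listed TSS and 34 lay upstream of it, while 322 remaining DARs covered the listed TSS. A longer region covers a TSS more easily, so the class shares depend in part on width itself. Distal intergenic DARs made up 28.8% of wide DARs (24.6% to 33.3%) and 41.7% of the remaining DARs (40.4% to 43.1%). Introns held 124 wide DARs (28.3%, 24.1% to 32.8%) and 34.9% of the remaining DARs. Exons had nearly the same shares, 4.11% and 4.39%, and the few wide DARs left were 8 downstream of genes, 5 in 5′ UTRs and 5 in 3′ UTRs.

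**Figure D2:**
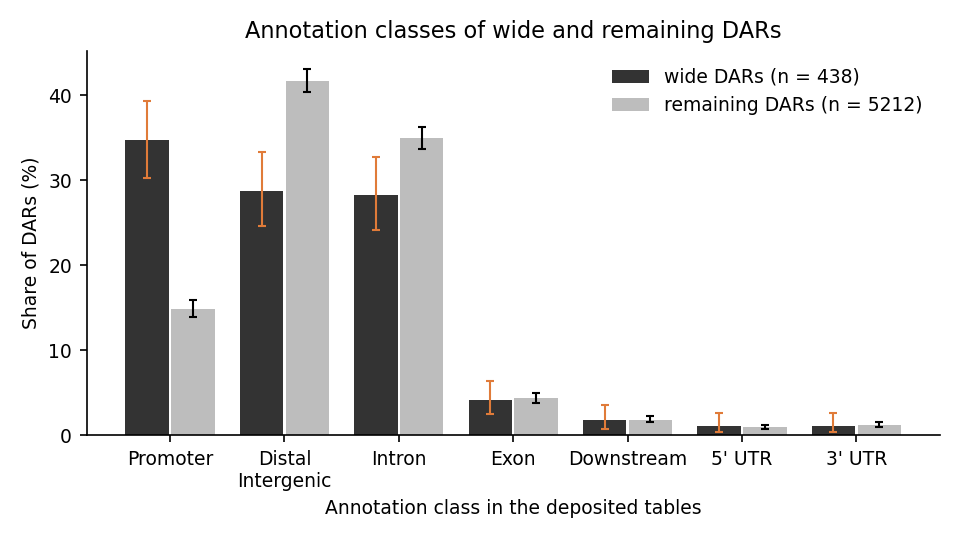
Share of DARs (%) in each annotation class of the deposited tables for 438 wide DARs (dark) and 5212 remaining DARs (light); lines are exact 95% intervals for counting error. The promoter bar of wide DARs stands at 34.7% against 14.9%, and their distal intergenic bar at 28.8% against 41.7%. The shares are not adjusted for width.

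Within classes, the gain shares of wide DARs lay around the background. Gain DARs were 83 of 152 in the promoter class (54.6%, 46.3% to 62.7%), 68 of 124 in introns (54.8%, 45.7% to 63.8%) and 76 of 126 between genes (60.3%, 51.2% to 68.9%). Exonic wide DARs were gain in 12 of 18 cases, downstream ones in 6 of 8, and those of each UTR class in 4 of 5. All of these intervals include the background of 55.9%.

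A wide DAR often lay right over a start site. The listed TSS was inside 118 wide DARs (26.9%, 22.8% to 31.4%), 67 gain and 51 loss, and inside 322 remaining DARs (6.18%, 5.54% to 6.87%). A longer region has more room to include a point, so the comparison was repeated in ways that do not use the length. The midpoint was within 250 bp of a protein-coding TSS for 125 wide DARs (28.5%, 24.4% to 33.0%) and for 8.12% of the remaining DARs (7.39% to 8.89%). When only the central 150 bp of each region counted, the listed TSS was inside 45 wide DARs (10.3%, 7.59% to 13.5%) and inside 5.05% of the remaining DARs (4.47% to 5.68%).

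The closeness to genes faded with distance. Midpoints within 1000 bp of a protein-coding TSS made up 33.6% of wide and 12.3% of the remaining DARs, and within 50000 bp 68.0% and 54.6%. Outside start sites, the median distance to the listed TSS was 10735 bp for 320 wide DARs and 14960 bp for 4890 remaining DARs. The nearest gene was protein-coding for 264 wide DARs (60.3%, 55.5% to 64.9%) and for 47.9% of the others. The share moved with width in steps rather than at the limit: the midpoint was close to a protein-coding TSS for 5.28% of DARs of exactly 150 bp, 12.8% at 250 to 299 bp, 20.0% at 300 to 349 bp and 65.7% of the 35 DARs of 500 bp or more.

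**Figure D3:**
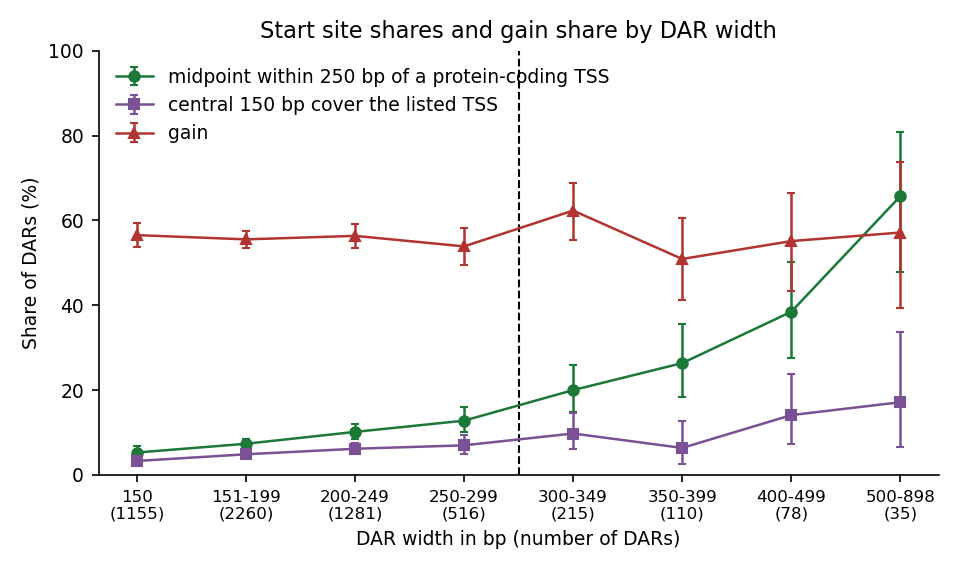
Share of DARs (%) by width range, with the number of DARs under each range and exact 95% intervals: midpoint within 250 bp of a protein-coding TSS (green circles), listed TSS inside the central 150 bp (purple squares) and gain (red triangles), with the limit dashed. The midpoint share climbs from 5.28% to 65.7%, whereas the gain share stays between 50.9% and 62.3%.

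Wide DARs at start sites spanned both sides of the TSS. Over the 118 regions, the median reach was 223 bp upstream (8 to 579 bp) and 168 bp downstream (0 to 630 bp), and 68 of them reached further upstream than downstream. Gain and loss DARs had close values, with medians of 212 bp upstream and 179 bp downstream for 67 gain DARs, and 243 bp and 136 bp for 51 loss DARs. Both reaches add up to about the width, which chose the regions, so their size is a description. The plot of spans around the TSS shows that the longest regions were not all centred on it.

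**Figure D4:**
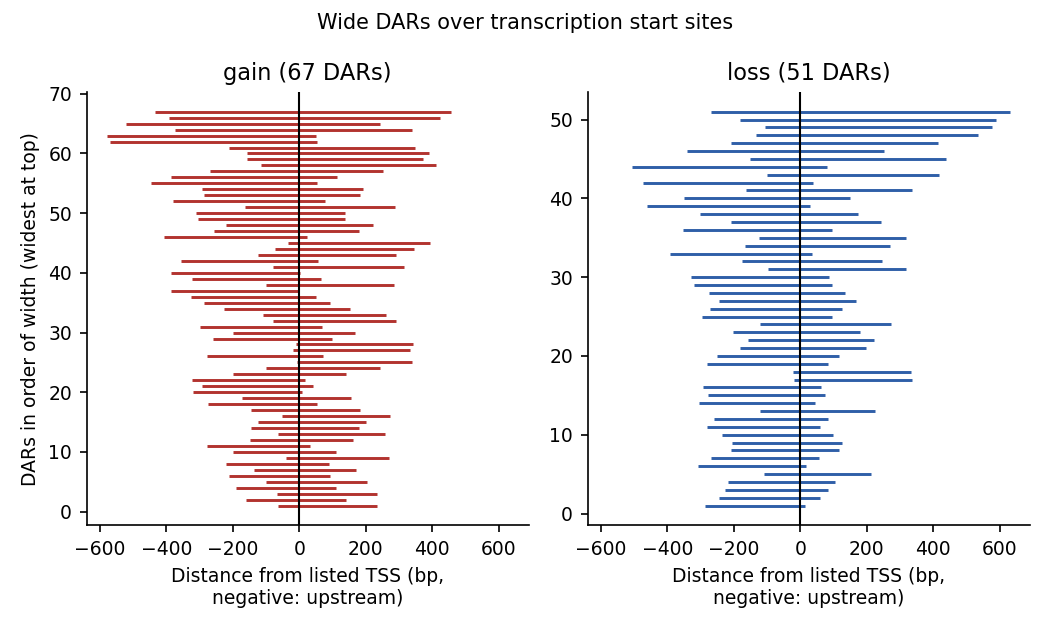
Extent of each wide DAR that covers its listed TSS, in bp from the TSS in the direction of the gene (negative values upstream), in order of width with the widest at the top, for 67 gain DARs (red, left) and 51 loss DARs (blue, right). Spans run from 579 bp upstream to 630 bp downstream, and the widest loss DARs extend mostly downstream.

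Some wide DARs covered more than 1 promoter. In all, 127 protein-coding genes had a TSS inside a wide DAR, and 8 regions covered those of 2 genes. In 7 of these the genes were on opposite strands, as divergent promoters are. The 5 gain regions of this kind lay at Ahsa1 and Vipas39, at Phb2 and Emg1, at Numa1 and Lrrc51, at Nol8 and Cenpp, and at Ilk and Rrp8, and the 2 loss regions at Hdlbp and Septin2 and at Lrrc34 and Lrriq4. Phb2 encodes a prohibitin of the inner mitochondrial membrane, Emg1 and Rrp8 act in ribosomal RNA modification, and Ilk encodes the integrin-linked kinase. Longer regions have more room for a second start site, so no comparison with the remaining DARs is drawn here.

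Of the 10 widest gain DARs, 6 covered a TSS. The DAR over the start of Atp2b1, which encodes a calcium pump of the plasma membrane, measured 892 bp (chr10:98749833-98750724). It was followed by an 866 bp region on the unplaced scaffold JH584304.1, upstream of a gene without a symbol. Odc1, the first enzyme of polyamine synthesis, had a gain DAR of 815 bp (chr12:17594404-17595218) and Ranbp2, a large nucleoporin, one of 767 bp. The gain DAR at Pkm, the pyruvate kinase of glycolysis, was 715 bp wide (chr9:59563276-59563990), that at Phf19, a partner of Polycomb repressive complex 2, 630 bp, and that at Atosb 623 bp. All of these except the scaffold region covered the TSS. The other 3 of the 10 widest lay near noncoding genes or pseudogenes, Gm11235 (799 bp, 162809 bp upstream), Gm23605 (569 bp) and 4930403O18Rik (569 bp).

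The widest loss DARs were also mostly at start sites, 8 of 10. Ccdc34 had the widest DAR of all, 898 bp (chr2:109847895-109848792). Glrx2, a mitochondrial glutaredoxin, had a loss DAR of 773 bp (chr1:143615113-143615885), and Ssu72, a phosphatase of the RNA polymerase II tail, one of 685 bp. Those at Zfp493, a KRAB zinc finger gene, at Sgms2, a sphingomyelin synthase, and at Gcfc2 measured 669, 621 and 589 bp. Havcr2, which encodes the immune receptor TIM-3, had a loss DAR of 594 bp (chr11:46345420-46346013), with a GC content of only 45.3%. At 588 bp, the region over the start of Lipn, shown above, was also poor in GC (45.1%). The loss DARs away from a start site were at Dpys (701 bp, the last of 9 introns, chr15:39641670-39642370) and at Mindy4, a deubiquitinase gene (594 bp, 857 bp upstream).

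Outside the promoter class, the widest gain and loss regions of each class measured from 324 to 799 bp. In introns these were Aig1 (gain, 531 bp) and Dpys, and between genes Gm11235 (gain) and Frg2f4 (loss, 534 bp). In exons they were Zfp558 (gain, 437 bp) and Ptpro, a receptor tyrosine phosphatase (loss, 465 bp). In 5′ UTRs, Rgs7bp had a gain DAR of 416 bp and Tlr2, the receptor for bacterial lipoproteins, the sole loss DAR, 360 bp wide and starting 37 bp downstream of the TSS (chr3:83748678-83749037). In 3′ UTRs they were Gnb3, a G protein subunit (gain, 408 bp), and Ap5z1, an adaptor subunit (loss, 324 bp), and downstream of genes Gm23605 (gain) and Osgin2 (loss, 374 bp).

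Of the listed genes of osteoclast, myeloid, chromatin and housekeeping functions, few had a wide DAR. Among 589 genes in 15 lists, 82 were the nearest gene of any DAR and 10 of a wide one (12.2%), 8 gain and 2 loss. Over all 4906 genes nearest to a DAR, 431 had a wide one (8.79%). The lists hold too few genes with a wide DAR for a comparison between them.

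Of 11 phospholipid synthesis genes with a DAR, 3 had a wide one, all gain and all over a TSS. Among all wide DARs, 57.8% were gain. The paper reports phospholipid synthesis terms for genes with gain DARs in this same comparison, so the direction here is no separate support. Pisd, which makes phosphatidylethanolamine from phosphatidylserine in mitochondria, had a DAR of 450 bp (chr5:32942792-32943241). Pip5k1c, a kinase that makes phosphatidylinositol 4,5-bisphosphate, had one of 389 bp (chr10:81128473-81128861), with 1 GC box in the stretch shown above. Selenoi, the ethanolamine phosphotransferase of the other route to phosphatidylethanolamine, had one of 327 bp (chr5:30437306-30437632), with 3 GC boxes in its stretch. The remaining 8 genes of this list with a DAR had narrower ones only.

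Among chromatin genes, 1 of 7 BAF genes with a DAR had a wide one. It was Bicra, with a gain DAR of 382 bp, 4797 bp upstream of the listed TSS and classed as distal intergenic (chr7:15786643-15787024). It was rich in GC (60.7%) and in CpG (observed over expected 0.71), as only 2 of the 126 intergenic wide DARs were by the limits given further on, and its central window holds 2 GC boxes. No annotated protein-coding TSS lay inside it.

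The lists of osteoclast genes and of myeloid transcription factors each had 1 gene with a wide DAR. Siglec15, the receptor that takes part in osteoclast fusion, had a loss DAR of 305 bp, just over the width limit, 1049 bp upstream of its TSS and in the promoter class. It was 1 of 10 osteoclast genes with any DAR. Zeb2, a zinc finger factor of monocytes and macrophages, had a gain DAR of 449 bp inside its own intron 3 of 10 (chr2:44939326-44939774), 1 of 11 such factors with a DAR. Its central window holds the AP-1 site TGAGTCA.

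In the other lists, the apoptosis inhibitor Birc3 had an intronic gain DAR of 332 bp, 957 bp downstream of its TSS. Ribosomal protein genes gave 1 in each direction, Rps25 (gain, 396 bp) and Rpl14 (loss, 450 bp), both over the TSS. No gene of the interferon-beta response, BET and elongation, proteasome, splicing or respiratory chain lists had a wide DAR, with 4, 4, 8, 4 and 5 genes near any DAR. Of the markers of other bone marrow cells, the lymphocyte gene Il7r had an intergenic gain DAR of 301 bp, 25802 bp upstream. Neutrophil, erythroid and stromal markers had 0, with 1, 0 and 4 genes near any DAR. These are too few to say whether such cells were present. As the tables list changed regions alone, the identity of the cells could not be checked against the accessibility of monocyte genes.

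A handful of genes had more than 1 wide DAR, and several of these went both ways. There were 6 such genes. Itpr2, an inositol trisphosphate receptor, had an intronic gain DAR of 377 bp and an intronic loss DAR of 464 bp. Pde4b, which degrades cyclic AMP, likewise had a gain DAR of 313 bp and a loss DAR of 368 bp in introns 3 and 7. At Sun1, a protein of the inner nuclear membrane, a loss DAR of 303 bp upstream and a gain DAR of 302 bp over the TSS were 3254 bp apart. Frg2f4 had 2 loss DARs, Zfp988 had 2 gain DARs, and the scaffold gene ENSMUSG00000095041 had 3 gain DARs.

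Opposite directions also met between neighbours. Another DAR of any width lay within 5 kb of 20 wide DARs (4.57%, 2.81% to 6.96%) and of 149 remaining DARs (2.86%). The nearest one had the same direction for 6 of the 20 (30.0%, 11.9% to 54.3%) and for 53 of the 149 (35.6%, 27.9% to 43.8%). The limit of 5 kb came from earlier work on these tables. The closest opposite neighbours were a loss and a gain DAR 137 bp apart near Frg2f4, and pairs 151 bp apart near Gm19018, 215 bp near Shisa9 and 263 bp near Aldoa, the glycolytic aldolase. Within 100 kb, 83 of 178 wide DARs (46.6%, 39.1% to 54.2%) matched the nearest DAR in direction. With 55.9% gain and 44.1% loss over all DARs, some neighbours would differ by composition alone. How many was not worked out, within 5 kb or within 100 kb. The share within 100 kb is not set against other DARs, so it is not shown to be particular to wide ones.

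In base composition, wide DARs were richer in CpG than the others over the whole set, and close to them where start sites were left out. In the central 150 bp, the median GC content was 52.0% for wide and 50.0% for the remaining DARs, and the CpG observed over expected ratio 0.23 and 0.15. Regions with a GC content of at least 50% and a ratio of at least 0.6 over their whole length made up 24.9% of wide DARs (20.9% to 29.2%) and 8.27% of the others (7.54% to 9.05%). These are the usual composition limits of a CpG island, applied without a minimum length to regions of unlike length. Away from start sites the central values were close, a GC content of 50.0% and 49.3% and a ratio of 0.15 and 0.14. At start sites the medians were 64.0% and 63.7% for GC and 0.81 and 0.80 for the ratio.

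The GC box, an element of many promoters, was more frequent in wide DARs. The GC box was in the central 150 bp of 76 wide DARs (17.4%, 13.9% to 21.2%) and of 6.50% of the remaining DARs (5.85% to 7.21%). At start sites it was in 52.5% of 118 wide (43.1% to 61.8%) and 44.7% of 322 remaining DARs (39.2% to 50.3%), and away from them in 4.38% and 3.99%. The box CCAAT, which NF-Y binds, was in 25.1% of wide (21.1% to 29.4%) and 19.6% of the remaining DARs (18.6% to 20.8%). This gap was also there away from start sites, 24.7% (20.1% to 29.8%) against 19.3% (18.2% to 20.4%), with intervals that overlapped slightly. CCAAT is so short that many windows hold it by base composition alone, and a match is not evidence that NF-Y is bound.

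The AP-1 site was found more often in wide loss than in wide gain DARs. It was in the central 150 bp of 29 of 185 wide loss DARs (15.7%, 10.8% to 21.7%) and of 19 of 253 wide gain DARs (7.51%, 4.58% to 11.5%). Among the remaining DARs the shares were 9.46% of loss (8.30% to 10.7%) and 7.57% of gain DARs (6.63% to 8.59%). The intervals of the wide groups overlapped slightly, and the split was picked out among 20 motifs after the shares were known.

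The split was present in the regions away from start sites. There, AP-1 was in 25 of 134 wide loss DARs (18.7%, 12.5% to 26.3%) and in 17 of 186 wide gain DARs (9.14%, 5.41% to 14.2%), against 9.76% and 7.95% of the remaining loss and gain DARs. Over the whole length of all wide DARs, start sites included, the shares were 21.6% of loss and 13.0% of gain. Without those at start sites they were 23.1% of loss (16.3% to 31.2%) and 16.7% of gain (11.6% to 22.8%). These intervals overlapped. Besides the regions printed above, and with start sites included, wide loss DARs with a central AP-1 site included those over the start of Sgms2 and near Pde4b. Such gain DARs included those near Itpr2 and Il7r. A match is a stretch of letters and not evidence that AP-1 is bound there.

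Among the other motifs searched, CCAAT was also in more wide loss DARs, 56 of 185 (30.3%, 23.7% to 37.4%), than wide gain DARs, 54 of 253 (21.3%, 16.5% to 26.9%). Among the remaining DARs it was in 19.0% of loss (17.4% to 20.7%) and 20.2% of gain DARs (18.7% to 21.7%), so that the shares of wide and remaining gain DARs were close. The RUNX core TGTGGT was in 14.8% of wide (11.6% to 18.5%) and 12.4% of the remaining DARs (11.5% to 13.3%). ATTAAA, the ARID3A core, was in 10 wide DARs (2.28%, 1.10% to 4.16%) and in 5.03% of the others (4.45% to 5.66%). The forkhead core GTAAACA, read by FOXP1 and its relatives, was in 9 wide DARs (2.05%, 0.944% to 3.86%) and in 1.44% of the others. By direction it was in 7 of 253 wide gain DARs (2.77%, 1.12% to 5.62%) and 2 of 185 wide loss DARs (1.08%, 0.131% to 3.85%). Among the remaining DARs it was in 1.65% of gain and 1.17% of loss. For ATAAACA the shares of wide and remaining DARs were 2.05% and 2.17%. GAGGAAGT, the core of PU.1 sites, was in 2.74% and 2.97%. Of the 20 motifs, 3 had intervals that did not overlap between wide and remaining DARs, namely the GC box, CCAAT and the ARID3A core. Away from start sites the intervals of all 3 overlapped. There the ARID3A core was in 3.13% of wide (1.51% to 5.67%) and 5.19% of the remaining DARs (4.59% to 5.85%).

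**Figure D5:**
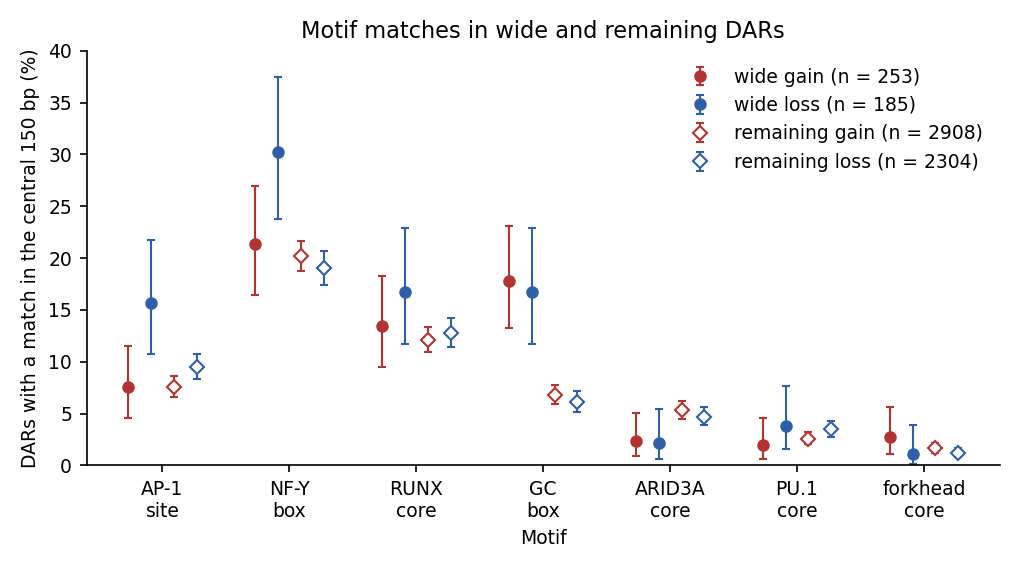
Share of DARs (%) with a match in the central 150 bp, either strand, for 7 of the motifs searched (the NF-Y box is CCAAT and the forkhead core is the form with G), in 253 wide gain (filled red), 185 wide loss (filled blue), 2908 remaining gain (open red) and 2304 remaining loss DARs (open blue), with exact 95% intervals. AP-1 stands at 15.7% in wide loss against 7.51% in wide gain DARs, and the GC box is higher in both wide groups than in both remaining groups.

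Genes of zinc finger proteins named Zfp, noticed after the members had been seen, were near 11 wide DARs of 10 genes (2.51%, 1.26% to 4.45%) and near 33 remaining DARs (0.633%, 0.436% to 0.888%). Of the 11, 6 were gain and 6 covered the TSS. Loss DARs lay over the starts of Zfp493, Zfp1007 (501 bp), Zfp938 (499 bp), Zfp773 (438 bp) and Zfp644 (336 bp), and a gain DAR over that of Zfp715 (488 bp). These genes belong to families of similar copies, and the Zfp1007 region matched 3 places in the genome and both Zfp988 regions 2.

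Immune and signalling genes that were also picked out after the values were seen had wide DARs of both directions. Loss DARs lay 97 bp upstream of the chemokine gene Cxcl3 (348 bp, chr5:90933518-90933865), 24 bp upstream of Smad3, a transducer of TGF-beta signals (371 bp), in the first intron of the integrin gene Itgb2 (418 bp) and in intron 5 of Plekhm1, a gene of osteoclast lysosome trafficking (311 bp). Another was 12140 bp upstream of the macrophage elastase gene Mmp12 (356 bp). Gain DARs lay over the start of the cholesterol exporter gene Abca1 (522 bp, chr4:53159643-53160164) and downstream of Zc3h12a, which encodes an RNase of inflammatory transcripts (421 bp).

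Wide DARs were spread over the genome, with 434 on autosomes and chromosome X. On single autosomes, the wide share of DARs ran from 3.61% to 10.5%, the highest being 33 of 314 on chromosome 9. Chromosome X held 2 and chromosome Y 1, all gain, and the scaffold JH584304.1 had 3 wide gain DARs among its 4 regions. Sequence with a second copy of at least 90% identity in the genome was found for 10 wide DARs (2.28%, 1.10% to 4.16%), 9 gain and 1 loss, and for 127 remaining DARs (2.44%), 65 of them gain. Of these 10, 2 were on the scaffold and 2 at Zfp988, and the one near Gm20586 had 30 copies. For such regions, reads could have come from any copy.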

How the data were processed

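ATAC-seq was done with 1 library of BMDMs per group. According to the methods and the submitters' processing notes, the authors trimmed reads (Cutadapt 1.9.1), aligned them to GRCm39 (Bowtie 2 2.2.6), removed duplicates and sampled mapped reads to a common depth (Picard 1.126), called peaks on whole fragments with MACS3, merged them and kept regions past a limit of log2 fold change. No Tn5 shift is stated. The deposited tables hold positions, widths in bp, distances to the TSS in bp and ChIPseeker-style classes. They carry no count, signal or fold change, so the depth behind a DAR is unknown and width is the sole measure of peak size. The width of a merged region can reflect how peaks of both libraries joined.

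Chromosomes 20 and 21 of the tables are X and Y and were renamed. Gene models came from GENCODE M39. GC content, CpG ratio and 20 motifs were read from GRCm39 in the central 150 bp and in whole DARs. The central window gives every DAR the same length of sequence, but in wide DARs it is only the middle of the region. Copies were alignments over 80% of the length at 90% identity (minimap2 2.31-r1302, k 15, w 5). Shares carry exact (Clopper-Pearson) 95% intervals. Python 3.11.15, pandas 2.3.3, SciPy 1.17.1 and pysam 0.24.0 were used, and the sequence and interval functions were tested on simulated data. With 1 library per group no test was made.

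The members, the 15 gene lists, the motifs and the limits were chosen with earlier results of these data known. Genes were named if nearest to the 10 widest gain or loss DARs, to the widest of a class in each direction, to 2 or more wide DARs, or if in a list. Genes beside printed sequences, at divergent promoters, near the closest opposite neighbours or near a region with copies fall outside this rule. So do those described as picked after their values were seen. Repeat content was not analysed here, and some genes are not reported here.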

Additional observations from a re-analysis of the deposited data

How the results depend on the processing

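No paired analysis was possible because each group has 1 library, which also leaves no replicate to leave out. Of 81 values under alternatives, 44 were within the counting interval of the value reported (or, for counts, within 1.5 times it), among them the gain share of wide DARs under the 3 alternatives run for it. Fewer or more DARs pass another width limit by construction: 531 gain and 423 loss at 250 bp, and 63 and 50 at 400 bp. With these limits the promoter share of wide DARs was 26.3% and 53.1%, the intergenic share 35.2% and 20.4%, and the share over a TSS 18.4% and 45.1%. The intron share was 17.7% at 400 bp, where 7.03% of the remaining DARs covered a TSS, and the median distance off the TSS 13909 bp at 250 bp. Promoters set by distance held 16.7% of the remaining DARs at 1 kb, and 45.4% of wide and 25.2% of the remaining DARs at 3 kb. In the central 150 bp, an alternative chosen after seeing the data, 10.3% and 5.05% covered a TSS. Outside the promoter class, wide DARs had a median GC content of 49.3% and a CpG ratio of 0.13, and the remaining DARs a ratio of 0.13, where the reported medians were 0.23 and 0.15.

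In whole DARs, where longer regions hold more letters, matches were in 29.0% of wide and 7.69% of the remaining DARs for the GC box, in 16.7% and 10.3% for AP-1 (13.0% of wide gain) and in 45.9% and 24.1% for CCAAT. In DARs over a TSS the shares were 52.5% and 44.7% for the GC box and 5.08% and 3.11% for AP-1 (2.99% of wide gain and 7.84% of wide loss), and 25.5% of the remaining ones held CCAAT. Counting promoter DARs alone left 6 list genes, and a neighbour lay within 100 kb of 40.6% of wide DARs. The deposited tables give no depth, and 1 library per group leaves the error between cultures unknown.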
